A study of Homo sapiens with 6 samples.

Results

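The cytosolic heat shock chaperones treated here are 10 genes, found by their symbols and chosen with earlier results of these data known: HSPA1A, HSPA1B, HSPA8, HSPH1, HSP90AA1, HSP90AB1, DNAJB1, BAG3, HSPB1 and HSPE1. All 10 were found among the 21503 genes of the count table and were among the 19430 genes that passed the filter on low counts. They were measured by bulk RNA-seq in UMUC3 cells, a human bladder carcinoma line, after 14 days of growth in the bladders of C57 nude mice. The tested libraries were 3 from UMUC3 cells with GANAB knockdown and the 3 others came from control UMUC3 cells in the same host site. The labels call the first group a knockdown while its columns carry an abbreviation for knockout, and they give neither the agent nor the number of clones. They also do not tie libraries to mice, so a p-value here covers the spread among 3 libraries a group, possibly technical spread alone. Host bladder RNA that matches human transcripts may be counted, since a step removing mouse reads is named in no label. Although the set is labelled cytosolic, HSPE1 encodes the small co-chaperonin of the mitochondrial matrix and is kept here because the symbols define the set.

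Heat shock proteins bind unfolded stretches of other proteins and let them go in cycles driven by ATP. HSP70 proteins work with J-domain partners, which deliver clients and start ATP hydrolysis, and with nucleotide exchange factors, which end the cycle; HSP90 proteins act later, on kinases, steroid receptors and other near-native clients. Part of the set is made at all times (HSPA8, HSP90AB1), and part is induced by heat or other protein damage through the transcription factor HSF1, which binds inverted repeats of the unit GAA in promoters (HSPA1A, HSPA1B, DNAJB1). Many carcinoma lines hold high levels of these chaperones.

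Promoters of 6 of the 7 genes with such repeats are shown: HSPA1A, HSPA1B and DNAJB1, which varied most between libraries, and HSPA8, HSP90AA1 and HSP90AB1, which hold the longest matches. HSPB1, not printed, holds 1 match that begins 182 bases before its start, and HSPH1, the next most variable gene, holds none. Each line gives the 190 bases before a RefSeq transcript start (GRCh38.p14), read 5′ to 3′ on the strand of the gene, and capitals mark matches to 2 adjoining inverted units, GAANNTTC or TTCNNGAA, or to 3, GAANNTTCNNGAA or TTCNNGAANNTTC.
HSPA1A (chr6:31815353-31815542, plus strand): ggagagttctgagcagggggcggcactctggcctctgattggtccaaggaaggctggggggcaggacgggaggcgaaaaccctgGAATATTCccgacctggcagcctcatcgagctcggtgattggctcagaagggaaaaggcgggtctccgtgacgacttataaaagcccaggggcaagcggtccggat
HSPA1B (chr6:31827548-31827737, plus strand): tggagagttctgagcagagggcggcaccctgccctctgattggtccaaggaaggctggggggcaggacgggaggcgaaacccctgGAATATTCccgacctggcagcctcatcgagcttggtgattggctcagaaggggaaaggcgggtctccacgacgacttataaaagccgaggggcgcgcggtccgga
DNAJB1 (chr19:14518398-14518587, minus strand): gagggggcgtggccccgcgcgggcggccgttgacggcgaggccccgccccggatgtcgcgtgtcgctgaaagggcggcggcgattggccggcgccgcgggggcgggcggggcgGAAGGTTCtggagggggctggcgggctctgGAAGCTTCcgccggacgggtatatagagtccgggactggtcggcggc
HSPA8 (chr11:123062137-123062326, minus strand): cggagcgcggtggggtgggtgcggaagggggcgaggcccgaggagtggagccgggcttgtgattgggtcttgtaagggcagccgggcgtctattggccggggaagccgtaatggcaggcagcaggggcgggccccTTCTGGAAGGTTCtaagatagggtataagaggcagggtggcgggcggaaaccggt
HSP90AA1 (chr14:102087045-102087234, minus strand): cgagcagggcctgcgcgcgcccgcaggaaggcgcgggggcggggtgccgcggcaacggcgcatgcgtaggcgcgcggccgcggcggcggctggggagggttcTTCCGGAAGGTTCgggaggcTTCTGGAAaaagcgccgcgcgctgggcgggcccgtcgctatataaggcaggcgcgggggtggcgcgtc
HSP90AB1 (chr6:44247753-44247942, plus strand): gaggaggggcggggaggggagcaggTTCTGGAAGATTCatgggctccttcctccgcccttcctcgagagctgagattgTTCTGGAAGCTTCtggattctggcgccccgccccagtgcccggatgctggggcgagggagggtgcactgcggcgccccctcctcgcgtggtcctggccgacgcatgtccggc
The motifs of 2 units read the same on both strands, those of 3 units are each other's reverse complement, and each motif of 3 units holds both motifs of 2 units. All 10 genes had entries, with 15 windows of 300 bases, from 250 before to 50 after a start. HSP90AA1 had 2 starts, and HSP90AB1 and DNAJB1 had 3 each. For these genes the printed start was the only one with a match in the 190 bases before it. A motif of 2 units was in 8 of the 15 windows, which belong to 7 genes, against 13.5% of all 35116 promoter windows. A motif of 3 units was in 3 of the 15 windows, which belong to HSPA8, HSP90AA1 and HSP90AB1, against 0.49% of all windows. In the windows of BAG3 and HSPE1, as in that of HSPH1, these letters were not found. The search took exact matches only, so repeats with a differing letter in a unit were not counted. A match describes the letters of a window and not bound factor. In the 190 bases shown, HSPA1A and HSPA1B were identical at 93.2% of 191 aligned positions, and their matches began 106 and 105 bases before the start.

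Total estimated counts were 36619291 to 40039584 in the knockdown libraries and 11737837 to 36381218 in the controls. GANAB, the targeted gene, held 231 to 238 CPM in the knockdown libraries and 661 to 825 CPM in the controls (counts scaled by TMM to CPM, the unit used below unless TPM is named). Control library 1 carried 29.2% of its counts in the 2 mitochondrial rRNA genes, against 2.11% to 2.43% in knockdown libraries and 0.928% to 1.10% in control libraries 3 and 2 (its TPM values for other genes are lowered accordingly, since TPM sums to a fixed total). The knockdown libraries lay close together, with a biological coefficient of variation over all genes of 10.7%, against 53.4% in the controls. Of 11 tested epithelial and urothelial markers FOXA1 and UPK1A rose and none fell, with a median log2 fold change of 1.00. Most of the 11 were at low levels: 4 reached 5 CPM in 3 libraries, and under that filter their median was 0.24. KRT7 and PPARG, at -1.11 and -1.12, were the 2 of the 11 below 0 and did not pass. KRT8 and KRT18 were the most abundant, at 145 to 157 and 182 to 201 CPM in the knockdown libraries and 80.7 to 165 and 131 to 248 CPM in the controls, while EPCAM and CDH1 were under 1 CPM in every library.

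No change of a member was detected between GANAB knockdown and control with all 6 libraries, and the intervals of several members were wide. None of the 10 passed an adjusted p of 0.05 (edgeR quasi-likelihood test with Benjamini-Hochberg adjustment over all genes; adjusted p = 0.251 to 0.952), where 8.31% of all genes tested passed, and none had an unadjusted p under 0.05. DESeq2, limma-voom and limma-voom with quality weights also called none, with 0, 1 and 2 unadjusted p under 0.05. The log2 fold changes, knockdown over control, ran from -0.26 to 0.87 with a median of 0.05, against a median of 0.03 for all genes tested. The controls were widely spread for some members: 9 of the 10 were lowest in control library 2, as were 40.6% of all genes tested, and the highest control exceeded the lowest at least 7-fold for HSPA1A, HSPA1B and DNAJB1, as for 1.67% of the 1798 genes that averaged at least 100 CPM. For 6 of the 10 members all 3 knockdown values lay within the range of the controls, against 37.4% of all genes tested. Groups did not overlap for HSPA1B and HSPB1, or 2 of 10, against 37.6% of all genes.

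**Figure D1:**
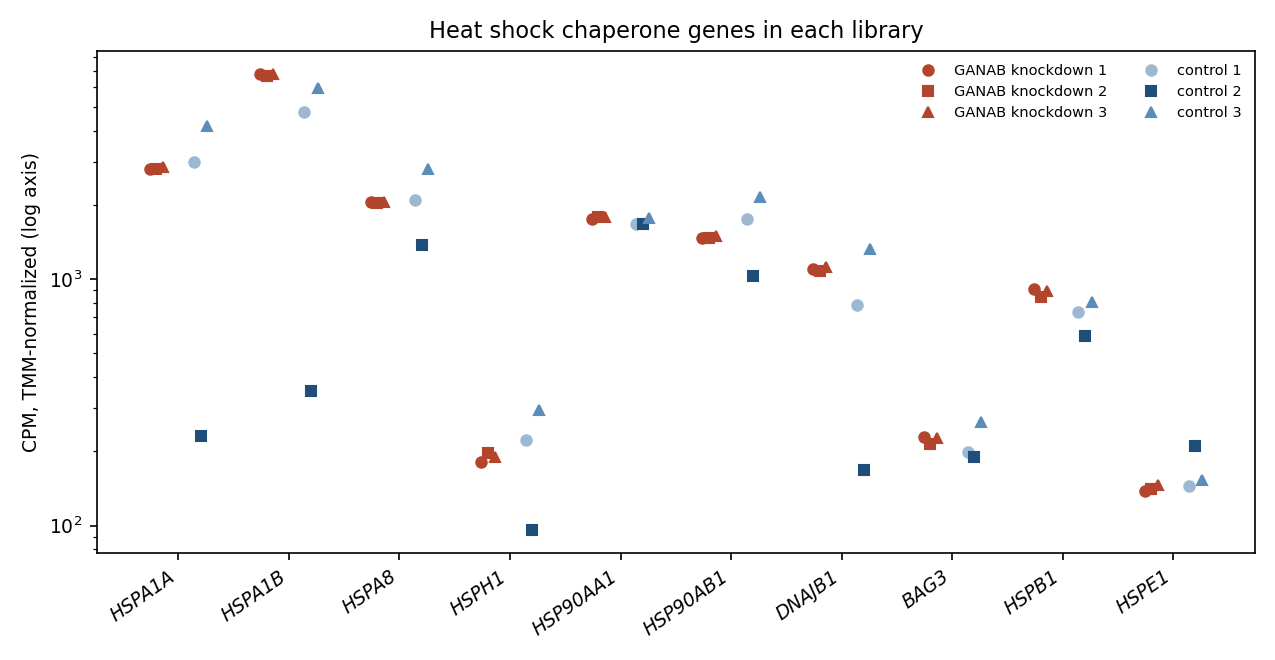
TMM-normalized CPM of the 10 genes on a log axis, 1 point per library, with GANAB knockdown left (red) and control right (blue) of each gene name and the marker shape giving the library number. The 3 knockdown points of a gene nearly coincide, while control library 2 (dark square) stands at 231 CPM for HSPA1A and 352 CPM for HSPA1B, far below the other controls.

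The stress-inducible HSP70 genes were the most variable members. HSPA1A (ENSG00000204389, chromosome 6, 31815464 to 31817946, plus strand, GRCh38) encodes the main heat-induced HSP70. It held 2799, 2796 and 2863 CPM in knockdown libraries 1, 2 and 3, against 2993, 231 and 4199.8 CPM in control libraries 1, 2 and 3. The knockdown values thus lay inside the control range, 12.2-fold above control library 2 and below the other controls. The log2 fold change was 0.19 (SE 0.793, 95% interval -1.66 to 2.04, edgeR adjusted p = 0.914). HSPA1B (ENSG00000204388, chromosome 6, 31827735 to 31830255, plus strand), the neighbouring copy, overlaps the gene model AL671762.1 on its own strand. It held 6805, 6660.2 and 6834 CPM in knockdown libraries 1, 2 and 3, against 4779.8, 352 and 5975 CPM in the controls. Every knockdown value exceeded every control, but the log2 fold change of 0.87 had a wide error (SE 0.791, 95% interval -0.98 to 2.72, edgeR adjusted p = 0.545).

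HSPA1A and HSPA1B cannot be fully told apart by reads. Of the 31-base words of the annotated HSPA1A transcripts, 73.6% also occur in those of HSPA1B, so the split between them is an estimate of the authors' quantification. Summed before the fit, they held 9605, 9456 and 9697 CPM in the knockdown libraries, against 7772, 583 and 10175 CPM in the controls, and the log2 fold change of the sum was 0.63 (SE 0.792, edgeR adjusted p = 0.675). The share assigned to HSPA1A differed in a steadier way, a measure chosen after its values were seen. HSPA1A took 29.1%, 29.6% and 29.5% of the summed counts in knockdown libraries 1, 2 and 3, against 38.5%, 39.6% and 41.3% in control libraries 1, 2 and 3. The groups did not overlap, and control library 2, low in both genes, had a share between those of the other controls. The mean share was 29.4% ± 0.230 in knockdown and 39.8% ± 1.39 in control libraries (SD, n = 3 each; exact 2-sided permutation test, p = 0.1, the smallest this design allows). On the TPM scale the shares were 30.5% ± 0.237 and 41.04% ± 1.41 in knockdown and control libraries.

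The constitutive HSP70 gene and its exchange factor differed less between libraries. HSPA8 (ENSG00000109971, chromosome 11, 123057489 to 123063230, minus strand), the housekeeping cytosolic HSP70, holds 3 small nucleolar RNA genes within its span. It stood at 2048, 2046 and 2055 CPM in knockdown libraries 1, 2 and 3, against 2105, 1375 and 2811 CPM in the controls. The knockdown values lay within the control range, with control library 2 lowest and control library 3 highest. The log2 fold change was -0.03 (SE 0.249, 95% interval -0.61 to 0.55). HSPH1 (ENSG00000120694, chromosome 13, 31134974 to 31162388, minus strand) encodes an HSP110 protein that exchanges nucleotide on HSP70. It held 180.4, 197 and 189 CPM in knockdown libraries 1, 2 and 3, against 222, 96.1 and 294 CPM in the controls. Here too the order of the controls was library 3, 1 and 2, and the 3 knockdown values lay between libraries 1 and 2 (log2 fold change -0.11, SE 0.355, 95% interval -0.94 to 0.72).

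The HSP90 genes differed in spread. HSP90AA1 (ENSG00000080824, chromosome 14, 102080738 to 102139699, minus strand; WDR20 overlaps it on the opposite strand) encodes the inducible cytosolic HSP90. It held 1751, 1789.8 and 1783 CPM in knockdown libraries 1, 2 and 3, against 1676, 1674 and 1774 CPM in the controls. All 6 libraries lay close together on this scale, control library 2 included. With a log2 fold change of 0.06 (SE 0.125), the 95% interval of -0.24 to 0.35 was the narrowest of the 10. On the TPM scale HSP90AA1 held 1017, 1082 and 1044 TPM in knockdown libraries, against 558, 658 and 962 TPM in the controls. The log2(TPM + 1) fit gave 0.57 (limma adjusted p = 0.375), against a median of 0.23 for all genes in that fit. With TPM rescaled without mitochondrial rRNA it gave 0.42, against a median of 0.11 for all genes, and neither passed. HSP90AB1 (ENSG00000096384, chromosome 6, 44246166 to 44253888, plus strand), the constitutive form, was more spread, at 1464, 1472 and 1491 CPM in knockdown libraries 1, 2 and 3, against 1749.9, 1030.1 and 2159 CPM in the controls. The knockdown values were again between control library 2 and the others (log2 fold change -0.16, SE 0.256, 95% interval -0.76 to 0.44).

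Of the HSP70 partners, the J-domain gene varied with the inducible HSP70 genes and the BAG gene did so little. DNAJB1 (ENSG00000132002, chromosome 19, 14514770 to 14529770, minus strand; TECR and MIR639 overlap it on the opposite strand) encodes an HSP40 protein that stimulates the HSP70 ATPase. It held 1103, 1081 and 1122 CPM in knockdown libraries 1, 2 and 3, against 786, 168 and 1321 CPM in the controls. Control library 2 was 6.57-fold below the knockdown mean, and control library 3 was above every knockdown value. The log2 fold change was 0.54 (SE 0.597, 95% interval -0.85 to 1.93, edgeR adjusted p = 0.631). BAG3 (ENSG00000151929, chromosome 10, 119651370 to 119677819, plus strand), an HSP70 exchange factor that links HSP70 clients to autophagy, had no 31-base word in common with another gene. It held 229.6, 215 and 226 CPM in knockdown libraries 1, 2 and 3, against 199, 189 and 264 CPM in the controls. Its control range spanned 1.39-fold and enclosed the knockdown values (log2 fold change 0.04, SE 0.161, 95% interval -0.34 to 0.41).

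The small chaperone gene HSPB1 had the control order of most members, and the co-chaperonin gene HSPE1 did not. HSPB1 (ENSG00000106211, chromosome 7, 76302544 to 76304295, plus strand) encodes HSP27, which holds unfolded proteins without ATP and binds actin filaments. It held 914, 847 and 893 CPM in knockdown libraries 1, 2 and 3, against 737, 588 and 805 CPM in the controls. Every knockdown library was above every control, and its adjusted p was the smallest of the set without passing (log2 fold change 0.32, SE 0.156, 95% interval -0.05 to 0.68, edgeR adjusted p = 0.251). HSPE1 (ENSG00000115541, chromosome 2, 197499994 to 197503457, plus strand) overlaps HSPD1, its partner chaperonin gene on the opposite strand, and the read-through gene HSPE1-MOB4. It held 137, 141 and 147 CPM in knockdown libraries 1, 2 and 3, against 145, 211 and 153 CPM in the controls. It was the 1 member that was highest in control library 2 (log2 fold change -0.26, SE 0.170, 95% interval -0.65 to 0.14).

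Leaving out control library 2 brought 2 members past the threshold. HSP90AB1 then fell 1.32-fold (edgeR adjusted p = 0.0314) and HSPH1 fell 1.36-fold (edgeR adjusted p = 0.0334) in the knockdown, in a fit where 27.7% of genes passed and 13.8% passed as lower. HSPA1A had a log2 fold change of -0.35 (95% interval -0.68 to -0.01, edgeR adjusted p = 0.114) and HSPA1B one of 0.34 (95% interval 0.06 to 0.61, edgeR adjusted p = 0.0739) without that library. The estimate for DNAJB1 was 0.07 (SE 0.194) and that for HSP90AA1 0.05. The fits without any of the other 5 libraries called no member.

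**Figure D2:**
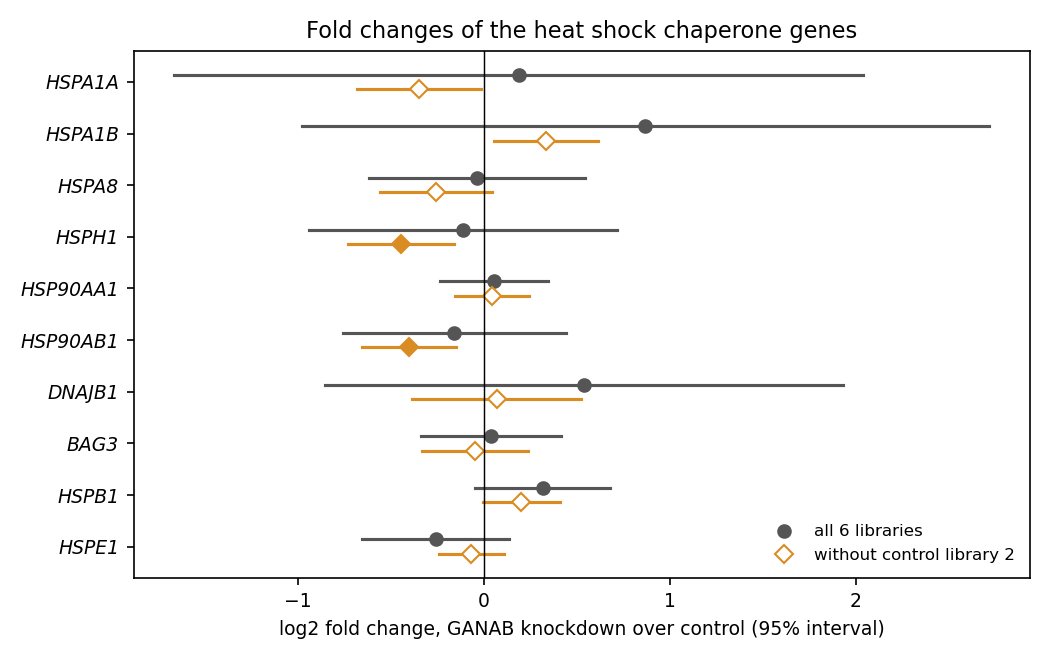
Log2 fold change of each gene, GANAB knockdown over control, with its 95% interval, from all 6 libraries (grey circles) and without control library 2 (orange diamonds, filled where the adjusted p is under 0.05). With all libraries every interval includes 0; HSPA1A and HSPA1B span -1.66 to 2.04 and -0.98 to 2.72, and only HSPH1 and HSP90AB1 are filled.

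Levels per length were compared with the deposited TPM values. In the knockdown libraries the order was HSPA1B (mean 3712 TPM), HSPA1A (1628), HSPB1 (1581), HSPA8 (1431), HSP90AA1 (1048), HSP90AB1 (796), DNAJB1 (756), HSPE1 (444), BAG3 (125) and HSPH1 (114). Only the neighbours HSPA1A and HSPB1 overlapped there, at 1601 to 1649 and 1554 to 1607 TPM. In the controls every pair of neighbours overlapped, and the order depended on the library. HSPA1B led control libraries 1 and 3 with 1686 and 3271 TPM, while control library 2 was led by HSPB1 (1170.2 TPM), HSPA8 (883 TPM) and HSPE1 (687 TPM), with HSPA1B at 187 TPM. Among all 60233 genes of the TPM table, HSPA1B ranked 45, 44 and 46 in knockdown libraries 1, 2 and 3, against 67, 718 and 58 in control libraries 1, 2 and 3. The 10 genes together took 11522, 11752 and 11630.3 TPM in the knockdown libraries, against 6549, 4516 and 13102 TPM in the controls.

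**Figure D3:**
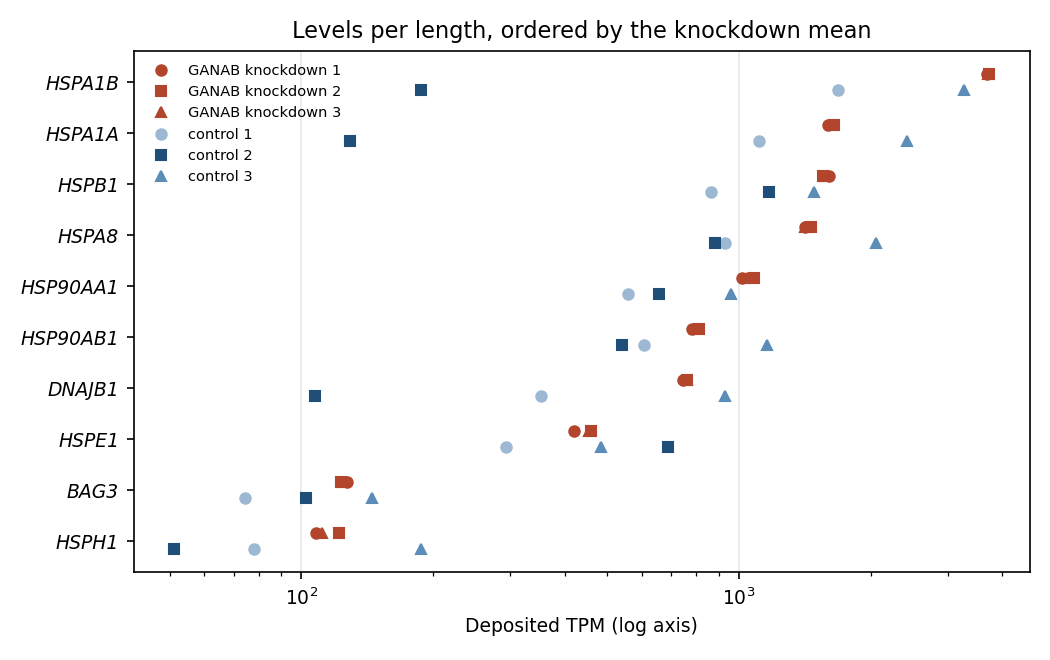
Deposited TPM of the 10 genes on a log axis, ordered by the knockdown mean, with GANAB knockdown libraries (red) above the controls (blue) in each row. HSPA1B has 3698 to 3731 TPM in the knockdown libraries and 187 to 3271 TPM in the controls.

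Control library 2 was low in most members, to very different degrees. Its level relative to the mean of control libraries 1 and 3 had a median log2 ratio (CPM with 1 added) of -0.88 over the 10 members, against -0.05 over all genes tested, and 4 members were below -1, against 9.26% of all genes. Those 4 were HSPA1A (-3.95), HSPA1B (-3.93), DNAJB1 (-2.65) and HSPH1 (-1.42). The ratio did not follow the division into inducible and constitutive forms throughout: HSP90AA1 and BAG3 were at -0.04 and -0.29, HSPA8 and HSP90AB1 at -0.84 and -0.92. The immediate early genes, which respond to growth signals and handling within minutes, had a median of -1.90, and all 15 were lowest in control library 2. Their summed level was 7194 to 7435 CPM in the knockdown libraries, against 3609, 1155 and 4071 CPM in control libraries 1, 2 and 3. FOS, named here after its values were seen, held 883 to 901 CPM in the knockdown libraries, against 224, 25.8 and 304 CPM in the controls. The other heat-inducible genes were also low in control library 2, with 8 of 16 below -1 and a median below that of the members. Of the other HSP70 and HSP110 genes 3 of 8 were below -1, with a median of -0.62, and HSPA4L and HSPA6 are in both lists. The HSP90 co-chaperones had a median of 0.20, the chaperonin and prefoldin genes one of 0.07 and the mitochondrial chaperones one of 0.53. Some host cell markers also differed in control library 2, without a common direction within the fibroblast list or the macrophage and leukocyte list. Fibroblast markers had a median of -1.42 with 3 of 6 below -1, the collagen genes COL1A1 (-2.74), COL1A2 (-2.79) and COL3A1 (-3.57). The fibroblast markers PDGFRA, PDGFRB and THY1 were at -0.03, -0.09 and 1.93. Smooth muscle markers had a median of -0.84 with 3 of 8 below -1, and all but SMTN (0.49) were below 0. The 4 macrophage and leukocyte markers had a median of -0.19, with CD68 at 1.64 and CSF1R, LYZ and PTPRC at -0.08, -0.31 and -0.70. The part of the immediate early genes and of host cells in the levels of the members was not tested.

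**Figure D4:**
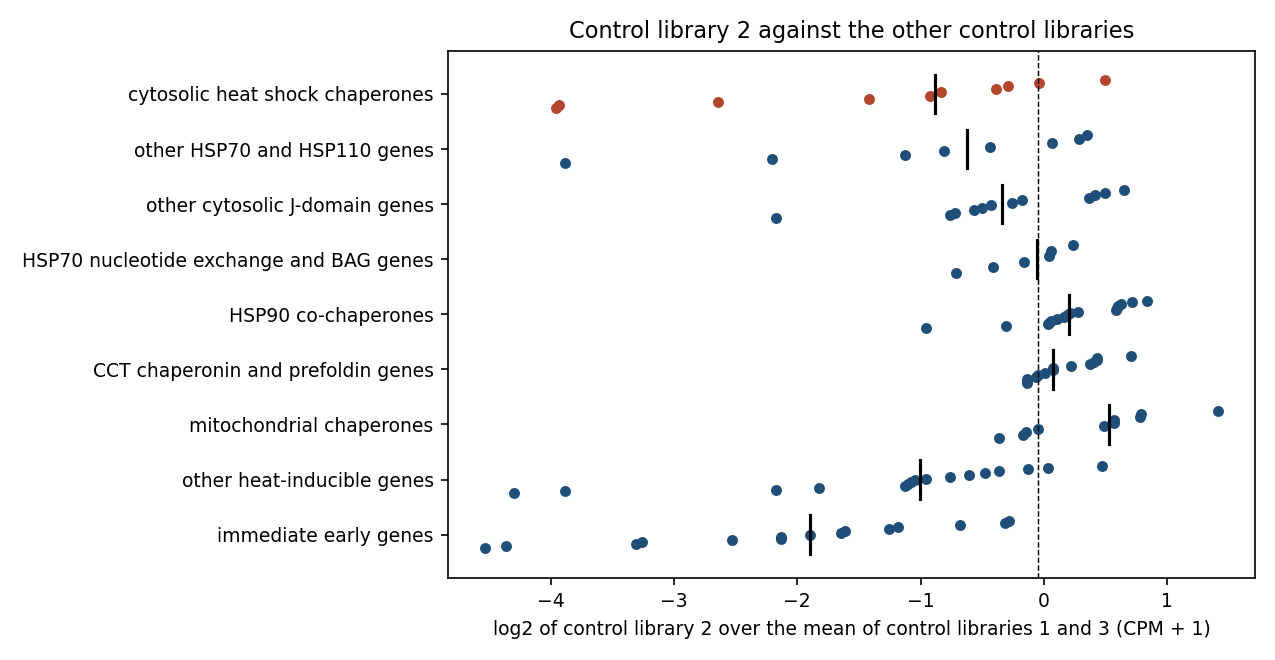
Log2 ratio of control library 2 to the mean of control libraries 1 and 3 (CPM + 1), 1 point per tested gene, by gene list; black bars are list medians and the dashed line is the median of all genes tested (-0.05). The members (red) have a median of -0.88 and the immediate early genes one of -1.90, while the chaperonin list lies near 0.

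The rest of the chaperone network held genes that did change. The lists named 91 further chaperone, co-chaperone and heat-inducible genes, of which 84 were in the count table and 83 were tested; 5 rose and 12 fell in the knockdown (edgeR adjusted p under 0.05), or 17 of 83, against 8.31% of all genes, of which 4.59% rose and 3.72% fell. With control library 2 left out 13 rose and 32 fell, in a fit where 13.9% of all genes rose and 13.8% fell, and with any 1 knockdown library left out none passed, in fits that called 0.311% to 0.575% of all genes. On the log2(TPM + 1) scale, with genes of a mean of at least 1 TPM, 11 rose and 1 fell of 82, against 4.82% and 0.494% of all 15583 genes (5.31% in either direction), with the median of all genes shifted to 0.23 there.

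A list of 14 genes covers the CCT chaperonin, the double ring that folds actin and tubulin, and prefoldin, which hands clients to it. Of these genes 5 fell and none rose, where 3.72% of all genes fell, with a median log2 fold change of -0.47. CCT5 held 269, 281 and 285 CPM in knockdown libraries, against 412, 440.4 and 426 CPM in the controls. The groups were well apart, and CCT5 fell 1.53-fold (edgeR adjusted p = 0.0250). CCT6A fell 1.53-fold, CCT8 1.55-fold, CCT3 1.40-fold and the prefoldin subunit gene PFDN2 1.45-fold. On the TPM scale the median of the list was -0.16 and none of the 14 passed.

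Of the 16 HSP90 co-chaperone genes, 3 fell and none rose, where 3.72% of all genes fell. Their median of -0.35 moved to 0.01 on the log2(TPM + 1) scale. FKBP5, an immunophilin of steroid receptor complexes that is itself induced by glucocorticoid, held 17.8, 22.4 and 20.2 CPM in knockdown libraries, against 98.1, 115 and 54.0 CPM in the controls. It fell 4.42-fold (edgeR adjusted p = 0.00842), the largest among the 12 that fell. STIP1, the adaptor between HSP70 and HSP90, fell 1.57-fold (edgeR adjusted p = 0.0325), and the related immunophilin gene FKBP4 fell 1.47-fold (edgeR adjusted p = 0.0479). Both were lower on every scale, with log2 fold changes of -0.41 to -0.27 for STIP1 and -0.19 to -0.04 for FKBP4 over the TPM fits.

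Other relatives of the members moved singly. Of 8 other HSP70 and HSP110 genes 1 fell, HSPA4, an HSP110 gene, at 172 to 183 CPM in knockdown and 238 to 299 CPM in control libraries (1.49-fold lower, edgeR adjusted p = 0.0460). HSPA6, an HSP70 gene that is nearly silent without strong stress, held 178, 174 and 179.7 CPM in knockdown libraries 1, 2 and 3, against 35.5, 0.946 and 20.0 CPM in the controls. Its groups did not overlap, but it did not pass (log2 fold change 3.23, SE 0.932, edgeR adjusted p = 0.0750; 2.65 and 0.000298 without control library 2). HSPA2 had a log2 fold change of 1.65 (edgeR adjusted p = 0.0660). Among 12 J-domain genes DNAJB2 rose 1.56-fold and DNAJC9, which also binds histones, fell 1.62-fold, with DNAJC8 at a log2 fold change of -0.54 without passing. Among 6 BAG and exchange factor genes BAG2 fell 1.61-fold, while BAG6 and BAG5 had log2 fold changes of -0.41 and 0.37. Of 10 mitochondrial chaperone genes CLPB fell 1.72-fold, and TRAP1 and CLPP, at -0.68 and -0.81, did not pass.

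None of the 5 tested genes of the list of heat shock factors passed. HSF1, the factor of heat induction described above, was named here after its values were seen. It held 109, 105 and 109 CPM in knockdown libraries, against 112, 166 and 133 CPM in the controls. Control library 2, lowest in the inducible chaperones, was the highest in HSF1 RNA, and the log2 fold change was -0.35 (edgeR adjusted p = 0.243). The activity of the HSF1 protein was not measured, and its part in the levels of the members was not tested. HSF2, HSF4 and HSF2BP had log2 fold changes of -0.65, 0.80 and -2.32 (edgeR adjusted p = 0.156 to 0.159). The value for HSF2BP rested largely on control library 2, with 9.30 CPM against 2.06 and 0.658 CPM in control libraries 1 and 3. Without control library 2 it was -0.79 (edgeR adjusted p = 0.428).

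Further heat-inducible genes were higher in part. Of 16 genes 4 rose and none fell, where 4.59% of all genes rose, and the median of the list was 1.17. HSPA4L, HSPA6, DNAJB4, CHORDC1, AHSA1, DNAJA4 and CRYAB are in this list and also in other chaperone lists. UBB, which encodes ubiquitin, the tag of proteins bound for the proteasome, held 1627, 1552 and 1608 CPM in knockdown libraries, against 1001, 826 and 811 CPM in the controls. The groups did not overlap, and UBB rose 1.81-fold (edgeR adjusted p = 0.0161). IER5, which encodes a protein that acts on HSF1, rose 4.60-fold (edgeR adjusted p = 0.0130), and the G-protein regulator gene RGS2, named outside the rule after its values were seen, rose 3.21-fold. CRYAB, a small heat shock gene abundant in muscle, held 154, 147 and 159 CPM in knockdown libraries, against 49.7, 0.473 and 6.26 CPM in the controls, without passing (log2 fold change 3.00, edgeR adjusted p = 0.155). The other small heat shock genes tested, HSPB11 and HSPB7, had log2 fold changes of -0.65 and 1.09. The 8 smooth muscle markers had a summed level of 625 to 662 CPM in the knockdown and 202 to 368 CPM in the control libraries. Of these 4 rose and 7 had positive log2 fold changes, SMTN was at -0.31 without passing, and LMOD1 was at 0 in control libraries 2 and 3. Of the immediate early genes 3 of 15 rose, KLF4 4.96-fold, DUSP1 4.14-fold and ZFP36 3.32-fold, and none fell. The part of host tissue in these values was not tested, and fewer cells of a type and less RNA per cell cannot be told apart in bulk samples.

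**Figure D5:**
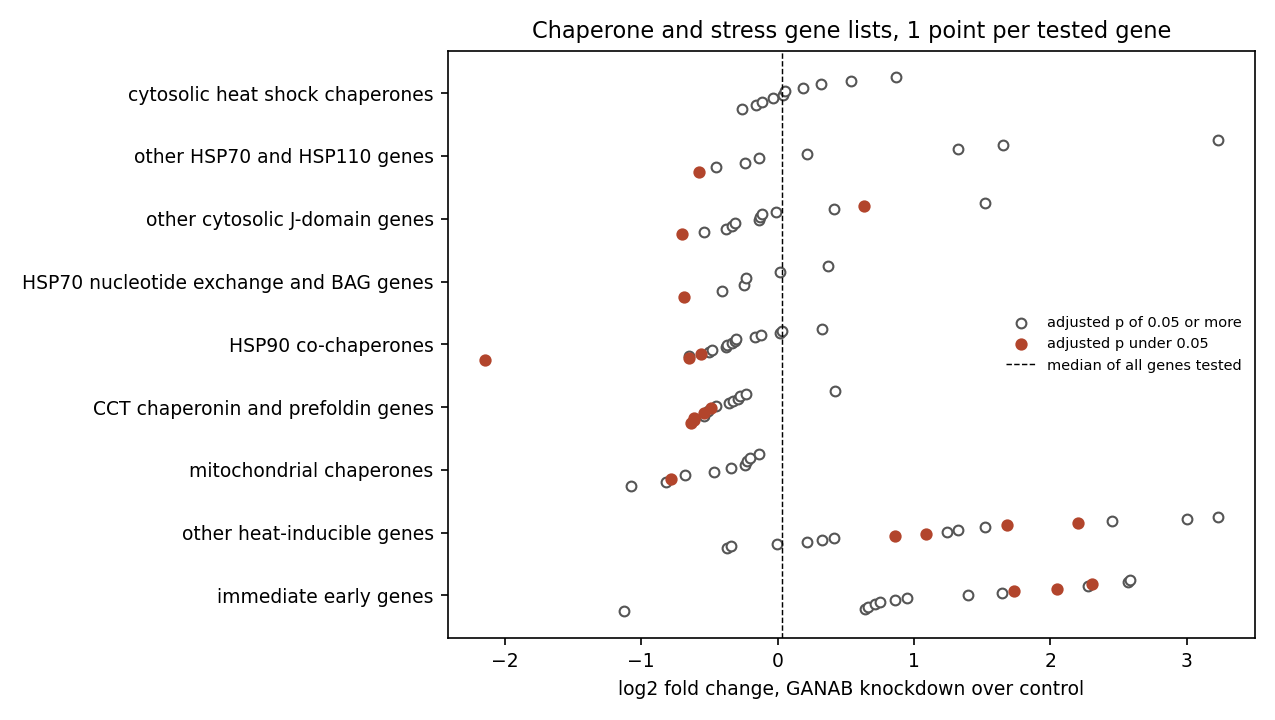
Log2 fold change, GANAB knockdown over control, of each tested gene by list, filled where the edgeR adjusted p is under 0.05; the dashed line is the median of all genes tested (0.03). No point of the top row is filled, the 5 called chaperonin and prefoldin genes lie left of 0, and the 4 called heat-inducible genes lie right of it.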

How the data were processed

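Libraries were made with a VAHTS Universal V6 kit from 200 ng of TRIzol-extracted RNA, per the labels' protocols. The submitters' processing notes name fastp, Salmon, DESeq2 and the build GRCh38; their versions and roles, and the strand setting, are not stated there. The authors deposited estimated counts per gene, not normalized (rounding changed 0 values). The TPM values were made by the authors, scaled for transcript length and library total, and used as deposited.

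From the estimated counts, edgeR 4.0.16 (R 4.3.3) was run on all 6 libraries with filterByExpr, TMM, the quasi-likelihood test without covariates, and Benjamini-Hochberg adjustment; 2073 genes were filtered out. SEs and 95% intervals came from the F statistic and its degrees of freedom. Alternatives used other scalings and filters, DESeq2 1.42.0, limma 3.58.1 (voom, and trend on TPM), left-out libraries, a replicate block, and 2 settings without mitochondrial rRNA that were chosen after seeing the data. A summed level or a median describes a list; no test was run on lists. Members and lists were chosen with earlier results of these data known. Named are GANAB, all members and up to 3 genes of smallest p per list, others as stated; 1 gene that the rule names is not reported here. Of the host lists, only smooth muscle is described in full; summed CPM in knockdown and control libraries were 221 to 222 and 62.2 to 250.04 for fibroblast, 5.11 to 6.55 and 1.89 to 3.35 for endothelial, 55.2 to 55.6 and 68.9 to 258 for leukocyte, and 0.204 to 0.353 and 0.263 to 0.576 for erythroid markers. Positions and transcripts are from GENCODE 29 (GRCh38).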

Additional observations from a re-analysis of the deposited data

How the results depend on the processing

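Over 20 alternatives, the count of members changed was 0 except without control library 2, where it was 2 (range over left-out libraries 0 to 2). The count of all genes changed, 1614, was 3660 by DESeq2, 3716 by voom with quality weights, 828 and 526 for TPM with 1 and 0.1 added, 46 with 1 added and no filter, and 62 to 5604 over left-out libraries. The count of other chaperone genes changed, 17, was 31 by DESeq2, 27 by limma-voom, 36 when voom weighted the libraries, 6 for TPM with 0.1 added, 2 with 1 added and no filter, 9 with TPM rescaled without mitochondrial rRNA, and 0 to 45 over left-out libraries. With the replicate number as a block, 566 genes, 6 other chaperone genes and 0 members passed. Deviations of same-numbered libraries correlated at 0.000543, 0.000320 and 0.0195, which gave no sign of pairing. Such correlations cannot exclude pairing, since the knockdown libraries differed so little from each other.

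Some log2 fold changes near 0 changed sign, none of them past the threshold with that sign. HSP90AB1 had a log2 fold change of 0.14 in the 3 TPM fits. HSPA8 had 0.030 by limma-voom, 0.27 in the TPM fits, 0.12 with TPM rescaled without mitochondrial rRNA and 0.026 with the replicate block, and HSPH1 had 0.049, 0.32, 0.17 and 0.023 under the same settings. Over left-out libraries the log2 fold changes ran from -0.40 to 0.038 for HSP90AB1, -0.26 to 0.19 for HSPA8, -0.44 to 0.20 for HSPH1, -0.045 to 0.15 for BAG3 and -0.35 to 0.77 for HSPA1A, lowest without control library 2 and highest without control library 3 in each. The larger estimates moved too, without passing: by limma-voom and on the log2(TPM + 1) scale, HSPA1A had 0.99 and 1.21 (0.19 by edgeR), HSPA1B 1.65 and 1.87 (0.87) and DNAJB1 0.99 and 1.20 (0.54). The median of the members was 0.39 on the TPM scale, against 0.23 for all genes there. The cause was not tested. The lowest count of a member in any library was 1829, for HSPH1 in control library 2.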
